A study of Mus musculus with 4 samples.

Results

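Mitochondrial ribosomal proteins were followed in macrophages grown from mouse bone marrow and cocultured with MC38, a mouse colon cancer cell line. The members were all genes of the count table whose symbol is Mrpl (large subunit) or Mrps (small subunit) followed by a number and at most 1 letter. There were 77 of them among 21878 genes listed, 48 Mrpl and 29 Mrps, and all 77 had enough counts to be tested. The study had 4 libraries. The 2 libraries labelled WT came from wild-type C57BL/6 mice, and the 2 labelled anti-Act1 came from C57BL/6 mice with a knockdown of Act1 in macrophages. Act1, encoded by Traf3ip2, is the adaptor that carries signals from the IL-17 receptor. Mice of all groups were 8 weeks old and all macrophages had been kept with MC38 cells for 48 h according to the sample labels; the study's text also gives a shorter coculture for these libraries. No library came from macrophages kept without tumor cells. The promoter that drives the knockdown, and whether a library came from 1 mouse or from several, are not given in the sources used here, so the p-values measure the spread between libraries of 1 label.

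The mitochondrial ribosome translates the few messenger RNAs made from mitochondrial DNA, all of which encode subunits of the respiratory chain and ATP synthase. Its ribosomal RNAs come from mitochondrial DNA, whereas its proteins are encoded in the nucleus, made in the cytosol and imported. Many of these proteins have a counterpart in the bacterial ribosome and others are found in mitochondria alone. In macrophages, mitochondrial respiration is known to change with activation, which gives these transcripts a place among the measures of macrophage state.

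Total counts were 64199075 and 75062945 in WT replicates 1 and 2, and 61926229 and 55435063 in anti-Act1 replicates 1 and 2. Levels between libraries are given as CPM (TMM-normalized counts scaled to the same library total) and levels between genes as FPKM, which also divides by gene length. Traf3ip2 itself, the target of the knockdown, had 6.98 and 7.54 CPM in WT libraries, against 9.63 and 7.84 CPM under the anti-Act1 label. The anti-Act1 libraries were thus both above the WT libraries, by 0.27 ± 0.12 on the log2 scale (SE, n = 2 per group, edgeR adjusted p = 0.117). With no lower Traf3ip2 transcript under the anti-Act1 label, WT and anti-Act1 are used below as names of libraries. These libraries also differed in Y-linked transcripts. Ddx3y, a Y-linked RNA helicase, had 5741 and 7360 counts in the WT libraries and 0 and 0 in the anti-Act1 libraries. Uty, Kdm5d and Eif2s3y had 2248 to 5546 counts in each WT library and at most 1 in each anti-Act1 library, so a difference in genotype, a difference in the sex of the mice and a mix-up of libraries cannot be told apart from these files alone, and each comparison of the labels is subject to this. The 77 members lay on 17 chromosomes, with the most (10) on chromosome 11, and 0 lay on X or Y.

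Macrophage markers were high in every library, led by the lysozyme gene Lyz2 at 15810 to 17740 CPM. Of the 8 macrophage markers, 1 was higher and 2 were lower in anti-Act1 at an edgeR adjusted p under 0.05 (37.5%, beside 20.7% of all genes tested), with log2 differences of -0.40 to 0.16 over the list. The phagocytic receptor gene Mertk had 170.1 and 176.7 CPM in WT and 130.6 and 132.6 CPM in anti-Act1 (edgeR adjusted p = 4.09e-08), and the integrin gene Itgam had 1458 and 1545 CPM against 1188 and 1237 CPM (edgeR adjusted p = 3.96e-06). Cd14, which encodes a lipopolysaccharide co-receptor, had 1897 and 1819 CPM in WT and 2096 and 2069 CPM in anti-Act1 (edgeR adjusted p = 0.0113). Its call was lost in edgeR without WT 2 (adjusted p = 0.0896), without anti-Act1 1 (adjusted p = 0.0749) and with the replicate block (adjusted p = 0.0568), and in the limma fits (adjusted p up to 0.291). The 8 markers of epithelial tumor cells summed to 0.464 and 0.369 CPM in the WT libraries and 0.389 and 0.128 CPM in the anti-Act1 libraries. Among these, the keratins Krt8 and Krt18 and the tight junction gene Cldn4 were at 0 counts throughout. Neutrophil markers summed to 7.68 and 7.46 CPM in WT and 7.64 and 6.67 CPM in anti-Act1, with S100a8 the most abundant. The similar sums hide opposite differences, since S100a8 was higher in anti-Act1 and S100a9, Retnlg, Ltf and Ngp were lower, which makes 5 of 7 tested neutrophil markers at an edgeR adjusted p under 0.05 (71.4%, beside 20.7% of all genes tested; median log2 fold change -1.42). Without anti-Act1 2 the edgeR adjusted p was 0.0806 for Retnlg, 0.125 for Ltf and 0.0635 for Ngp, and for Ltf it was 0.144 without WT 2 and 0.0638 with DESeq2. S100a8 had 3.61 and 3.74 CPM in WT and 6.09 and 5.55 CPM in anti-Act1, and S100a9 had 1.83 and 1.55 CPM against 0.810 and 0.440 CPM. The part of the macrophage and neutrophil marker differences in the results was not tested. The sums for B cells, dendritic cells, fibroblasts, T cells, mast cells with basophils and erythroid cells were under 4 CPM in every library.

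Before the values, promoters of a pair of members are shown because each holds motifs known from nuclear genes for mitochondrial proteins. The motifs of NRF1, of ETS factors such as GABPA, and of YY1 were sought on both strands between 250 bases before and 50 bases after the start of each gene (RefSeq, GRCm38.p6), and 68 of the 77 members had such a window. The sequences were chosen after the values had been seen. The promoter of Mrpl39, which encodes a mitochondria-specific protein of the large subunit, lies at chr16:84735195-84735494 on the minus strand. The promoter of Mrps27, a mitochondria-specific protein of the small subunit, lies at chr13:99344536-99344835 on the plus strand. Capitals mark the NRF1 motif in Mrpl39, and the ETS motif (read on the opposite strand) and then the YY1 motif in Mrps27.
Mrpl39: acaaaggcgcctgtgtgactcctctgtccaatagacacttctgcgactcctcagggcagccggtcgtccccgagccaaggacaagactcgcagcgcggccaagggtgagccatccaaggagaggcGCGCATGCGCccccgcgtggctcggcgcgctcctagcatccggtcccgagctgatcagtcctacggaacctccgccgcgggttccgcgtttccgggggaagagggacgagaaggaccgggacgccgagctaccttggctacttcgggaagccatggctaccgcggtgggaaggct
Mrps27: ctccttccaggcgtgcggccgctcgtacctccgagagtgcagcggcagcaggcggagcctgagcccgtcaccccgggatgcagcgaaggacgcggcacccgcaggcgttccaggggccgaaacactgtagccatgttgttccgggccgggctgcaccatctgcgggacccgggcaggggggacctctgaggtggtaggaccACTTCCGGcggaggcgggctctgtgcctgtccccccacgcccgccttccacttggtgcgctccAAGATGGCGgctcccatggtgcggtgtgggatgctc
The NRF1 motif, GCGC followed by AT and GCGC, was present in 3 members (Mrpl9, Mrpl32 and Mrpl39), 4.41% of those with a window, against 1.07% of the 27025 genes with one. The ETS motif CCGGAAGT was present in 12 members (17.6%, against 4.31% of all genes). The YY1 motif AAGATGGCG was present in 8 members (11.8%, against 1.64% of all genes). These are matches of letters, and binding was not measured.

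Transcripts of the mitochondrial ribosome ranged over an order of magnitude per length. Among Mrpl members, Mrpl52 had the highest mean level over the 4 libraries at 60.7 ± 5.84 FPKM (SD, n = 4), followed by Mrpl33 at 58.7 ± 4.12 FPKM and Mrpl42 at 44.8 ± 2.06 FPKM. The lowest were Mrpl19 at 3.65 ± 0.184 FPKM, Mrpl17 at 4.38 ± 0.252 FPKM and Mrpl35 at 4.99 ± 0.319 FPKM. Mrpl52 and Mrpl33 did not differ beyond their spread, while Mrpl42 lay below both in every library.

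Among Mrps members, Mrps21 had the highest mean level at 60.3 ± 1.40 FPKM, above Mrps34 at 44.4 ± 3.38 FPKM and Mrps24 at 39.6 ± 2.73 FPKM. Mrps25 was lowest at 2.68 ± 0.219 FPKM, below Mrps27 at 6.25 ± 0.355 FPKM and Mrps6 at 8.23 ± 0.603 FPKM. The median level was close between the subunits, 19.9 FPKM for Mrpl and 18.8 FPKM for Mrps. The order of the members was almost the same in both groups. Spearman rho was 0.99 between mean WT FPKM and mean anti-Act1 FPKM over 77 genes, and the same gene lengths enter both means. Without division by length the range was narrower: the highest mean CPM was 7.60 times the lowest, against 22.6 times in FPKM. Mean FPKM and gene length had a Spearman rho of -0.69 over the 77 members, and mean CPM and gene length one of 0.07. The deposited FPKM is made by dividing by that length, so length enters both sides of the first of these values.

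**Figure D1:**
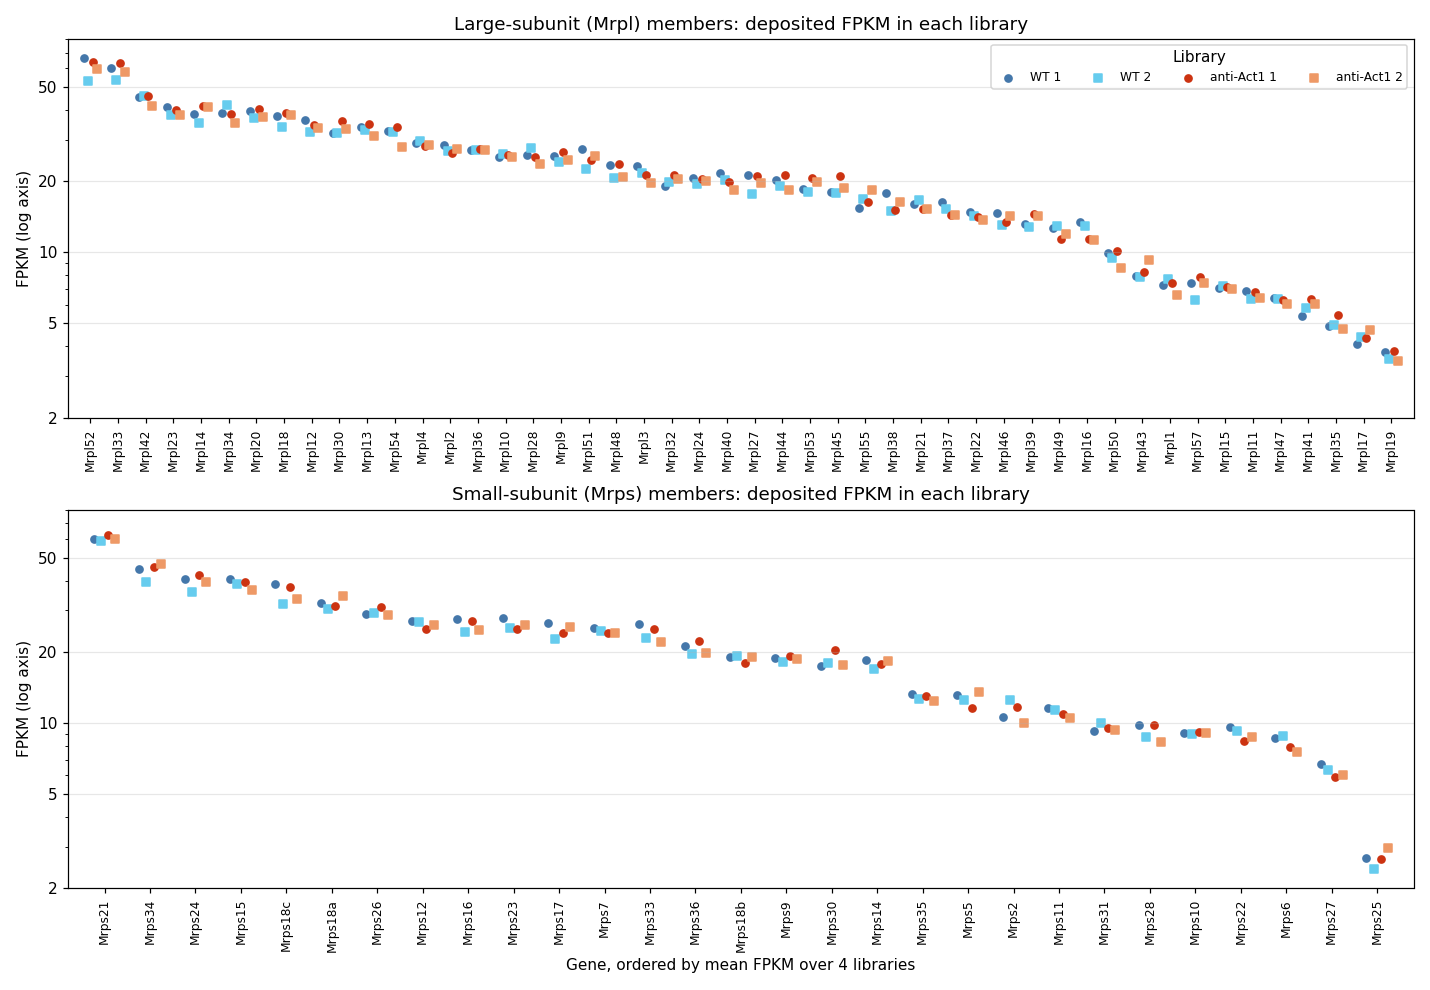
Deposited FPKM (log axis) of every Mrpl member (upper panel) and every Mrps member (lower panel), ordered by mean level, with 1 point per library. Mrpl52 and Mrps21 lead at about 60.7 and 60.3 FPKM, and for most genes the 4 points lie close together compared with the distance between high and low genes.

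The plot of FPKM by gene shows that differences between members were far wider than differences between libraries for the same member. WT replicate 2 is the lowest point for many of the more abundant members, Mrpl52, Mrpl33, Mrps34 and Mrps24 among them.

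The comparison of the libraries labelled anti-Act1 with those labelled WT was made in the study to ask how Act1 in macrophages bears on their response to tumor cells, and here it compares the labels. Few transcripts of the mitochondrial ribosome differed. Of 77 members, 1 passed the threshold, Mrpl14, which was higher in anti-Act1, whereas 20.7% of the 12494 genes tested passed it (2586 genes, edgeR adjusted p under 0.05). In 1 direction, 10.9% of all genes were higher and 9.76% lower. By subunit, 1 of 48 Mrpl members was higher and 0 were lower, and 0 of 29 Mrps members were called in either direction. At an unadjusted p under 0.05 in the same edgeR fit stood 6 Mrpl members and 1 Mrps member, 9.09% of the 77 against 31.4% of all genes. DESeq2 called 0 members. A p that misses the threshold does not show that the levels were equal, and in bulk libraries fewer cells of a type and less RNA per cell cannot be told apart.

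The sizes of the differences were small as well. The median log2 fold change was 0.025 for Mrpl (range -0.19 to 0.19) and -0.0018 for Mrps (range -0.15 to 0.17), beside a median of -0.0046 for all genes tested, whose quartiles were -0.12 and 0.13. In each of the 77 members the 95% interval of the fold change lay within 1.5-fold, and in 69 it lay within 1.25-fold. The same held for 9458 and 6752 of the 12494 genes tested. The lowest bound over all members was 0.755 times the WT level (Mrps6) and the highest 1.30 times (Mrpl43). The precision was close to that of other genes, with a median SE of the members' log2 fold changes of 0.0766, against 0.0752 for all genes.

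**Figure D2:**
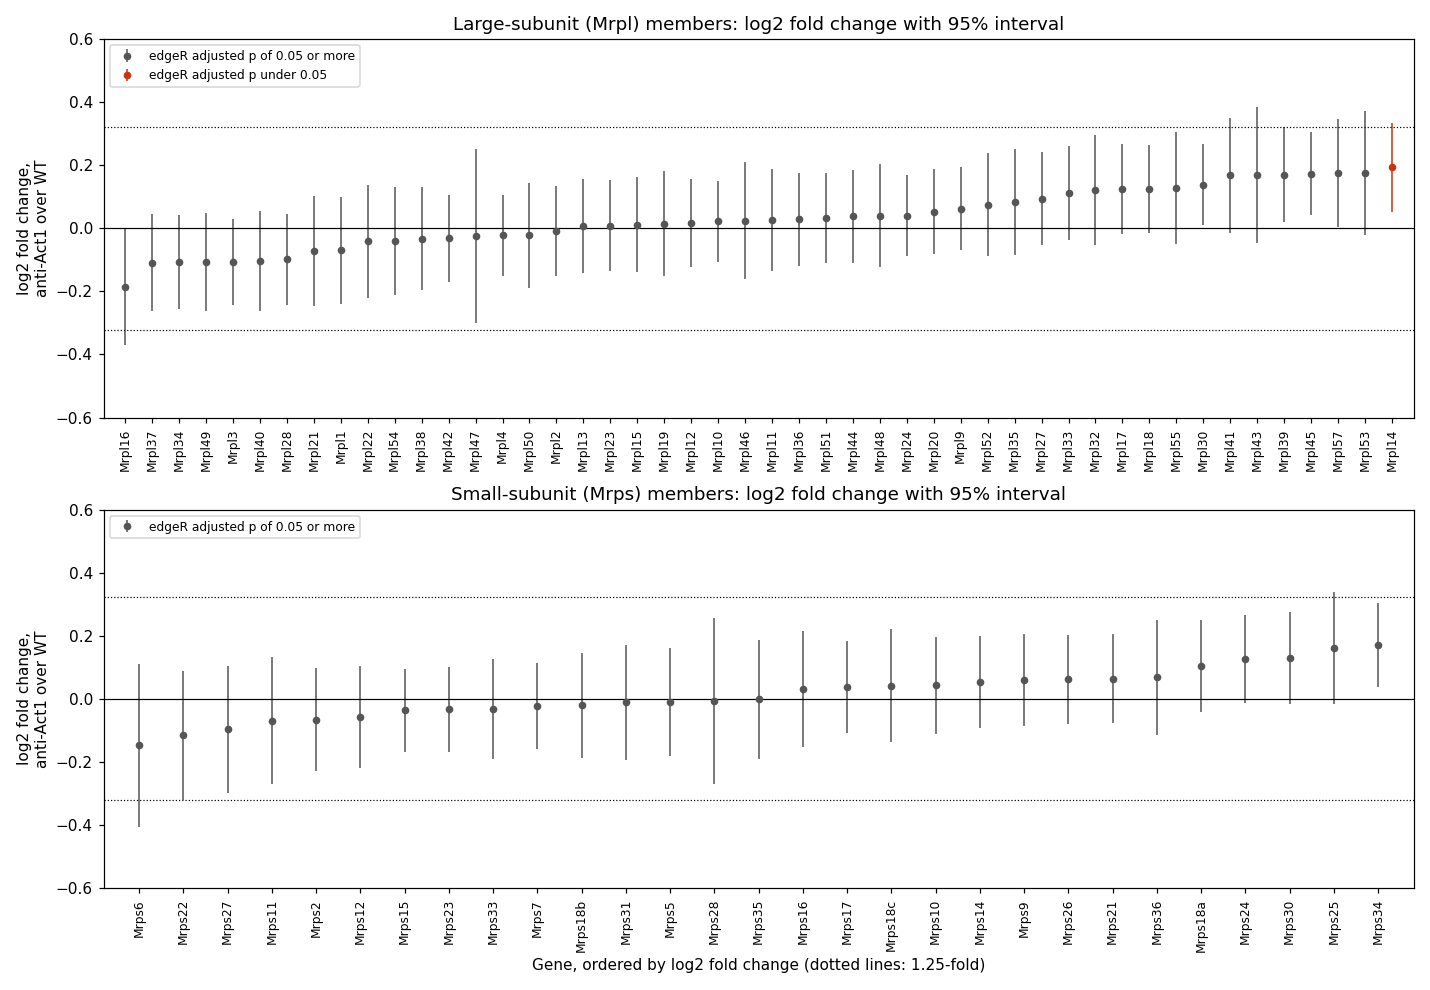
The log2 fold change (anti-Act1 over WT) of each Mrpl member (upper panel) and Mrps member (lower panel), ordered by size, with 95% intervals from edgeR (n = 2 per group) and dotted lines at 1.25-fold. Mrpl14, drawn in red at 0.19, is the 1 member with an adjusted p under 0.05, and most intervals cross 0.

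Mrpl14, a large-subunit protein with a bacterial counterpart, is encoded on chromosome 17. It stood at 29.4 and 26.9 CPM in the WT libraries and at 32.2 and 32.0 CPM in the anti-Act1 libraries, a difference of 0.19 ± 0.07 on the log2 scale (SE, edgeR adjusted p = 0.0414). Both anti-Act1 libraries were above both WT libraries. The call was absent in 10 of 14 alternative settings. Without WT replicate 2 the log2 fold change was 0.13 (adjusted p = 0.331), without anti-Act1 replicate 1 it was 0.19 (adjusted p = 0.175) and without anti-Act1 replicate 2 it was 0.20 (adjusted p = 0.159). In the annotation (GENCODE M21) the exons of Mrpl14 share bases with those of Tmem63b on the other strand, and the library kit does not mark strand. Tmem63b, a membrane channel gene, stood at 35.6 and 34.6 CPM in WT and at 33.7 and 40.0 CPM in anti-Act1, so its groups overlapped.

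The large-subunit members next in order of adjusted p did not pass the threshold, and only the first of them, Mrpl45, lay near it. Mrpl45, a mitochondria-specific protein by which the ribosome attaches to the inner membrane, stood at 37.9 and 37.3 CPM in WT and 44.7 and 40.0 CPM in anti-Act1 (a log2 difference of 0.17 ± 0.07, edgeR adjusted p = 0.0537). The higher of its anti-Act1 values came from replicate 1, and without anti-Act1 replicate 2 the log2 fold change was 0.25 (adjusted p = 0.0323; range over all alternatives 0.0323 to 0.589). Mrpl39, the gene of the promoter printed above, stood at 21.8 and 21.1 CPM in WT and 24.1 and 24.2 CPM in anti-Act1 (0.17 ± 0.07, edgeR adjusted p = 0.107). Mrpl30, the most abundant member in CPM, stood at 39.6 and 39.7 CPM in WT and 44.9 and 42.2 CPM in anti-Act1 (0.14 ± 0.06, edgeR adjusted p = 0.124). In all 3 genes the groups did not overlap, and in all 3 the fitted difference was less than 1.25-fold.

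In the other direction, Mrpl16, whose bacterial counterpart lies near the peptidyl transferase centre, had the most negative value of the Mrpl members. It stood at 15.1 and 14.4 CPM in WT and at 12.97 and 12.95 CPM in anti-Act1, a log2 difference of -0.19 ± 0.09 (edgeR adjusted p = 0.150). Its groups did not overlap. It passed the threshold in 3 alternative settings, namely with the gene-length trend removed (adjusted p = 0.0435) and in both limma fits of filtered FPKM (adjusted p = 0.0334 and 0.0331), with adjusted p values from 0.0331 to 0.359 across all 14.

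Of the small subunit, Mrps34, a mitochondria-specific protein needed for a stable small subunit, had the highest log2 fold change. It stood at 40.0 and 35.2 CPM in WT and at 41.4 and 43.2 CPM in anti-Act1 (0.17 ± 0.07, edgeR adjusted p = 0.0624). WT replicate 2 was the lowest of its libraries, and without WT replicate 1 the log2 fold change was 0.26 (adjusted p = 0.00485; range over all alternatives 0.00485 to 0.575). Without WT replicate 2 it was 0.08 (adjusted p = 0.575). Of the 25-base words in annotated Mrps34 transcripts, 74.7% also occur in transcripts of other genes, mostly of Mapk8ip3, which lies on the other strand. Mapk8ip3, a scaffold for JNK signaling and axonal transport, was higher in anti-Act1 at 107 and 99.3 CPM against 120 and 115 CPM (a log2 difference of 0.19 ± 0.05, edgeR adjusted p = 0.0100). That call was absent in 5 of 14 alternatives, among them without WT replicate 2 (adjusted p = 0.144) and without anti-Act1 replicate 1 (0.174), and the part of Mapk8ip3 in the Mrps34 count was not tested.

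Mrps6, whose bacterial counterpart is S6, had the most negative value of the small subunit. It stood at 6.67 and 6.81 CPM in WT and at 6.22 and 5.95 CPM in anti-Act1 (-0.15 ± 0.13, edgeR adjusted p = 0.479). The difference was about as large as its SE. Slc5a3, a myo-inositol transporter gene whose exons share bases with Mrps6 on the same strand, fell by 0.39 on the log2 scale (SE 0.12, edgeR adjusted p = 0.0121), a call absent in 5 of the 12 alternatives that tested it, among them without WT replicate 2 (0.117) and without anti-Act1 replicate 1 (0.145).

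Grouped by kind of protein, the members had medians near 0 in each group. Calls by group are to be read beside the 20.7% of all genes tested that passed the threshold. The 30 large-subunit members with a bacterial counterpart had a median log2 fold change of 0.020 with 1 call, Mrpl14, and the 16 small-subunit members of this kind had a median of 0.012 with 0 calls. The 20 mitochondria-specific proteins of the large particle, which include Mrps30 and Mrps18a despite their names, had a median of 0.039, and the 10 of the small particle a median of -0.015, with 0 calls in both. Mrps36, which by its name is a member but is a component of the 2-oxoglutarate dehydrogenase complex, had a log2 difference of 0.07 ± 0.09 (edgeR adjusted p = 0.667), which was under 0 with the gene-length trend removed and without anti-Act1 replicate 1. Exon overlap split the members into 45 without a shared base, with a median of -0.0018 and 0 calls, and 32 with one, with a median of 0.035 and 1 call. In 3 members, Mrpl53, Mrps34 and Mrps25, over 50% of the 25-base words also occur in other genes (median over the 77 members 7.78%), and their counts are uncertain.

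Whether groups were separated at all was counted next. In 30 members (39.0%) the WT and anti-Act1 libraries did not overlap in CPM, 18 of them higher and 12 lower in anti-Act1, while 57.1% of all genes tested had groups that did not overlap. For Mrpl these were 12 higher and 7 lower, and for Mrps 6 higher and 5 lower. The share of members was thus below the background in this count too. It was not particular to them, since the groups did not overlap in 34.1% of cytosolic ribosome genes and 41.8% of respiratory chain genes tested.

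Summed over all members, Mrpl transcripts came to 1201 and 1143 CPM in the WT libraries and to 1218 and 1179 CPM in the anti-Act1 libraries. The sums overlapped, with WT replicate 1 between the anti-Act1 replicates. Mrps transcripts summed to 645 and 608 CPM in WT and to 643 and 637 CPM in anti-Act1, with the highest and the lowest value both among WT libraries. All 77 together made up 0.186% and 0.177% of the counts in WT and 0.186% and 0.179% in anti-Act1. These sums are given as a description, without a test.

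**Figure D3:**
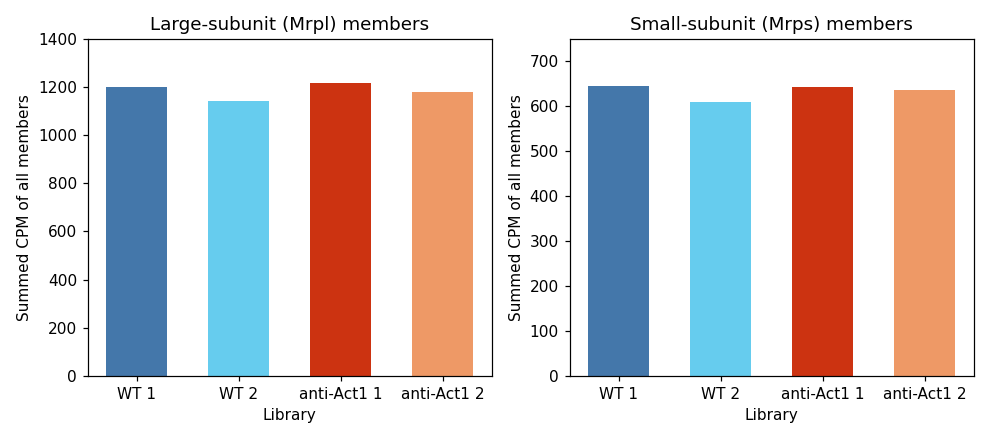
Summed CPM of the 48 Mrpl members (left) and the 29 Mrps members (right) in each library, with 1 bar per library and axes that start at 0. WT replicate 2 is lowest in both panels, at 1143 and 608 CPM, and the other libraries lie within a narrow range.

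In the plot of sums WT replicate 2 stood lowest, and gene by gene it was below WT replicate 1 in 32 of 48 Mrpl members (median difference -0.063, log2) and in 23 of 29 Mrps members (median -0.074), while the median difference over all genes was 0.0014. Between the anti-Act1 replicates the medians were -0.041 and -0.032. Both within-label shifts were larger in size than the difference between labels, 0.025 for Mrpl and -0.0018 for Mrps. Leaving out WT replicate 1 moved the medians to 0.078 for Mrpl and 0.058 for Mrps. Leaving out WT replicate 2 moved them to -0.028 and -0.037. The calls with a library left out, for members and for all genes, are given below with the dependence on processing.

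The other genes of mitochondrial protein synthesis were examined list by list, and 1 gene, Lars2, had a large difference. Of 6 subunits that carry other names, 1 was called (16.7%, beside 20.7% of all genes), with a median log2 fold change of 0.12. In 5 of the 6 (83.3%, against 57.1% of all genes) the groups did not overlap, 4 higher and 1 lower in anti-Act1. The called gene was Gadd45gip1 (also CRIF1), a large-subunit protein near the exit of the nascent chain. It was higher in anti-Act1, at 24.4 and 23.5 CPM against 28.9 and 26.2 CPM (a log2 difference of 0.20 ± 0.07, edgeR adjusted p = 0.0435). This call was absent in 9 of 14 alternatives, among them without WT replicate 2 and without anti-Act1 replicate 1. Dap3, a GTP-binding protein of the small subunit, stood at 33.7 and 30.6 CPM against 35.9 and 34.1 CPM (0.12 ± 0.07, edgeR adjusted p = 0.209). Ict1, the listed name of Mrpl58, a release factor built into the large subunit, stood at 11.1 and 11.4 CPM against 11.7 and 12.7 CPM (0.11 ± 0.10, edgeR adjusted p = 0.497).

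Among 25 genes for assembly of the mitochondrial ribosome and modification of its RNA, 1 was higher and 2 were lower in anti-Act1, with a median of -0.015. These 12% stand beside the 20.7% of all genes called. Mrm1, a methyltransferase of the large ribosomal RNA, rose from 24.9 and 22.8 CPM to 28.4 and 29.5 CPM (log2 fold change 0.28 ± 0.07, edgeR adjusted p = 0.00348). Fastkd2, an RNA-binding protein needed for the large subunit, had 15.3 and 15.0 CPM in WT and 13.3 and 11.8 CPM in anti-Act1 (-0.27 ± 0.09, edgeR adjusted p = 0.0282). Mettl17, which acts in assembly of the small subunit, had 12.1 and 11.2 CPM in WT and 9.26 and 9.76 CPM in anti-Act1 (-0.29 ± 0.10, edgeR adjusted p = 0.0378). The groups of all 3 genes did not overlap. Of 14 alternatives, 3 lacked the call of Mrm1, 5 that of Fastkd2 and 5 that of Mettl17. Leaving out single libraries ended each of these calls in at least 1 case: without WT replicate 2 for Mrm1 (adjusted p = 0.0719), without anti-Act1 replicate 2 for Mrm1 (0.0558), Fastkd2 (0.332) and Mettl17 (0.0789), without WT replicate 1 for Fastkd2 (0.0843) and Mettl17 (0.190), without WT replicate 2 for Fastkd2 (0.0658), and without anti-Act1 replicate 1 for Mettl17 (0.207).

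Translation factors (17 genes) and genes for transcription, processing and replication of mitochondrial DNA (18 genes) formed 2 lists. With all libraries, edgeR and DESeq2 called 0 genes in both, while edgeR called 20.7% of all genes tested. The medians were -0.034 and 0.0031. Mtpap, the mitochondrial poly(A) polymerase, was called lower without WT replicate 1 (edgeR adjusted p = 0.0499) and without anti-Act1 replicate 1 (0.00782). In each of the 2 lists 1 gene had an unadjusted p under 0.05 in edgeR (5.88% and 5.56%, against 31.4% of all genes). Tufm, the mitochondrial elongation factor Tu, stood at 44.2 and 44.4 CPM in WT and 41.4 and 47.2 CPM in anti-Act1 (a log2 difference of -0.0007 ± 0.065, edgeR adjusted p = 0.996). Tfam, which packages mitochondrial DNA and starts its transcription, stood at 22.8 and 23.7 CPM against 26.4 and 23.3 CPM (0.10 ± 0.08, edgeR adjusted p = 0.420). Both genes had groups that overlapped. The 13 messenger RNAs encoded in mitochondrial DNA, whose translation is the task of these ribosomes, have no row in the count table and were not analysed here.

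Lars2, the mitochondrial leucyl-tRNA synthetase, was the exception among 20 synthetase and amidotransferase genes. It rose from 112 and 78.2 CPM to 1427 and 1185 CPM (log2 fold change 3.78 ± 0.08, edgeR adjusted p = 2.22e-35), and it was called in all 14 alternatives (3.54 to 4.06). Of the 25-base words in its annotated transcripts, 1.90% also occur in annotated transcripts of other genes. Unannotated copies and other sequences outside these transcripts were not searched. Whether all the counts came from Lars2 messenger RNA was therefore not tested. The median of the 20 genes was -0.054. Lars2 alone passed the threshold with all libraries (5.0%, beside 20.7% of all genes tested), and 0 of the other 19 did. Over the alternatives this list held 1 to 2 genes called higher and 0 to 2 called lower.

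Regulators of mitochondrial biogenesis and quality control counted 2 higher and 1 lower among 11, 27.3% beside 20.7% of all genes. Lonp1, the ATP-dependent protease of the matrix, rose from 92.4 and 86.2 CPM to 106 and 106 CPM (log2 fold change 0.25 ± 0.05, edgeR adjusted p = 0.000465; 0.0563 in limma on unfiltered FPKM), and Clpp, the proteolytic subunit of another matrix protease, rose from 17.2 and 17.3 CPM to 20.3 and 20.1 CPM (0.23 ± 0.08, edgeR adjusted p = 0.0356). The Clpp call was absent in 8 of 14 alternatives, among them each of the 4 fits without 1 library (adjusted p 0.0943 to 0.164). Myc, a transcription factor that drives ribosome production and growth, fell by 0.76 on the log2 scale (SE 0.18, edgeR adjusted p = 0.00161), from 3.67 and 3.75 CPM to 2.36 and 2.02 CPM. Nrf1 and Gabpa, whose motifs were sought in the promoters, had log2 differences of 0.033 ± 0.071 (edgeR adjusted p = 0.804) and 0.0062 ± 0.062 (edgeR adjusted p = 0.964), and their groups overlapped.

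Genes of proliferation were examined because growing cells make more ribosomes. Of 19, 3 were lower in anti-Act1 and 0 higher (15.8%, beside 20.7% of all genes in either direction and 9.76% lower), with a median of -0.21. Top2a, the topoisomerase of dividing cells, fell by 0.71 on the log2 scale (SE 0.17, edgeR adjusted p = 0.000973), from 4.33 and 4.77 CPM to 2.93 and 2.62 CPM. Mcm3 and Mcm5, subunits of the replicative helicase, fell by 0.29 (SE 0.07, edgeR adjusted p = 0.00184) and 0.55 (SE 0.17, edgeR adjusted p = 0.0124). The Mcm3 call was absent in 2 of 14 alternatives and the Mcm5 call in 4. Single libraries ended the call of Mcm3 (adjusted p = 0.0784 without anti-Act1 replicate 1) and of Mcm5 (0.152 without WT replicate 1 and 0.0819 without anti-Act1 replicate 1).

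**Figure D4:**
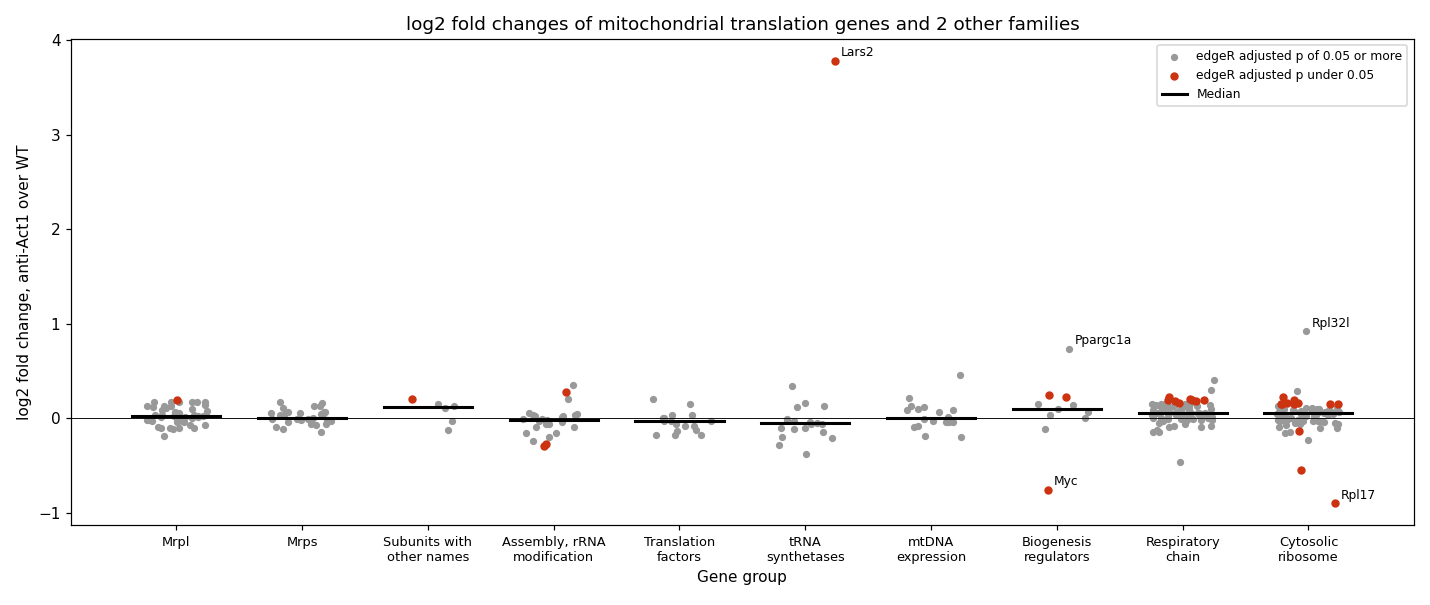
The log2 fold change (anti-Act1 over WT) of each tested gene in the Mrpl and Mrps groups, in 6 lists of other mitochondrial genes, and in the respiratory chain and cytosolic ribosome families, with black lines at the medians and red points for an edgeR adjusted p under 0.05. Mrpl and Mrps form narrow bands around 0 with 1 red point, while Lars2 stands alone at 3.78.

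Placed beside the most similar families, the mitochondrial ribosome had fewer calls, though the difference between families was not tested. The median SE was 0.0766 for the members, 0.0534 for the cytosolic ribosome and 0.0631 for the respiratory chain. A difference of the same size was thus called more readily in the latter families. Intervals within 1.25-fold were about as frequent, at 89.6%, 90.6% and 91.1% of tested genes in the same order. Of 79 tested nuclear-encoded genes of the respiratory chain and ATP synthase, 8 were higher and 0 lower in anti-Act1 (10.1%), with a median log2 fold change of 0.057. Ndufs7, a subunit of complex I, rose from 50.8 and 47.8 CPM to 54.1 and 60.7 CPM (0.22 ± 0.06, edgeR adjusted p = 0.00823). Atp5d, a subunit of ATP synthase, rose from 112 and 102 CPM to 124 and 123 CPM (0.20 ± 0.05, edgeR adjusted p = 0.00452). The Ndufs7 call was absent in 4 of 14 alternatives and the Atp5d call in 3. Single libraries ended the call of Ndufs7 (adjusted p = 0.0740 without WT replicate 2 and 0.337 without anti-Act1 replicate 2) and of Atp5d (0.122 without WT replicate 2 and 0.0602 without anti-Act1 replicate 1). Of 85 tested genes of the cytosolic ribosome, taken by symbol, 9 were higher and 3 lower (14.1%), with a median of 0.052. Rps14, a protein of its small subunit, rose from 429 and 403 CPM to 483 and 486 CPM (0.22 ± 0.05, edgeR adjusted p = 0.000901; 0.125 in limma on unfiltered FPKM), and Rpl17, of its large subunit, fell by 0.90 on the log2 scale (SE 0.09, edgeR adjusted p = 3.93e-11; 0.0568 with DESeq2 and 0.0870 in limma on unfiltered FPKM). Genes of the cytosolic ribosome have many processed pseudogenes, so their counts are uncertain. Both shares were below the 20.7% of all genes. In all 3 families WT replicate 2 had the lowest summed level, 22783 CPM for the cytosolic ribosome and 5028 CPM for the respiratory chain, against at least 24474 and 5434 CPM in the other libraries.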

How the data were processed

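RNA of 4 libraries of bone-marrow-derived macrophages was analysed. The authors aligned read pairs with TopHat and deposited whole counts per gene without normalization, and FPKM. Within 0.1%, the FPKM equal these counts divided by gene length and by the library total in the 13000 genes checked, of 15491 with a length. Per the labels' processing notes, Bowtie 0.12.2, HTSeq 0.6.1 and the builds mm8 and mm10 were named without a role. The main test was the two-sided quasi-likelihood F test of edgeR 4.0.16 (R 4.3.3) on the deposited counts, with TMM normalization, filterByExpr, condition as the only term and Benjamini-Hochberg adjustment over 12494 genes. The study's methods name DESeq2, which is an alternative here (1.42.0), as is limma (3.58.1) on log2(FPKM + 1) and log2(FPKM + 0.1). Further alternatives were DESeq2's size factors, library totals only, no filter, at least 10 counts per library, loess offsets (span 0.3) that take out a trend with gene length, a replicate block, and leaving out each library in turn. On simulated counts edgeR called 170 of 200 genes changed 2-fold and 7 unchanged genes among 12374. Smaller changes, of the size fitted for the members, were not simulated, so recovery at that size is not known.

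Members and gene lists were chosen with earlier results of these data known. Genes named are Traf3ip2, for each subunit the members with an adjusted p under 0.05 (at most 6), the 3 highest and 3 lowest in mean FPKM and the largest changes in each direction, the calls of each list, and other members or list genes named with their group. Exon overlaps and 25-base words come from GENCODE M21 (GRCm38), and promoters from RefSeq (GRCm38.p6). Symbols of the comparison families were matched by pattern and take in Rps6kl1, Atp5s and Atp5sl, which are not subunits. Libraries had 55435063 to 75062945 counts. Protein sequences and mitochondrial transcripts were not analysed here.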

Additional observations from a re-analysis of the deposited data

How the results depend on the processing

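The count of Mrpl members called higher, 1 in the edgeR fit, was 0 with DESeq2, with library totals only, with the gene-length trend removed and in all 3 limma fits, and 2 with DESeq2's size factors in edgeR and with at least 10 counts in every library. The count of Mrpl members called lower was 1 with the gene-length trend removed and with limma on filtered log2(FPKM + 1) and log2(FPKM + 0.1). Leaving out each library in turn gave 0 to 4 Mrpl and 0 to 2 Mrps members called higher, and medians of -0.0278 to 0.0779 for Mrpl and -0.0366 to 0.0579 for Mrps. With the gene-length trend removed the medians were -0.0182 for Mrpl and -0.0529 for Mrps, and with library totals only they were -0.0005 and -0.0270, where the median of all genes was -0.03. Over all genes, 908 were called higher in limma on log2(FPKM + 0.1), and 582 higher and 509 lower in limma on unfiltered log2(FPKM + 1), against 1366 and 1220; leaving out a library gave 930 to 1335 higher and 741 to 1208 lower. Mrps members called lower stayed at 0 in all 14 alternatives. Over all settings 8 members were called in at least 1 and 69 in none. Among the named genes, those that changed direction had small log2 differences: Tufm (0.0001 with DESeq2, 0.0004 with its size factors, 0.0013 with at least 10 counts, -0.0965 to 0.0951 with a library left out), Gabpa (-0.0191 with library totals only, -0.0158 in limma on log2(FPKM + 1) with and without the filter, -0.0168 on log2(FPKM + 0.1), -0.0688 to 0.0855 with a library left out), Nrf1 (-0.0008 to 0.0665 with a library left out) and Mrps36 (-0.0074 with the gene-length trend removed, -0.0088 to 0.1428 with a library left out). The causes of these changes were not tested.

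With the replicate number as a block, 0 Mrpl and 0 Mrps members were called, against 1 and 0 without it, and over all genes 1293 were higher and 1113 lower. The differences between replicates 1 and 2 in WT and in anti-Act1 had a correlation of -0.03 over 12494 genes, so the libraries share a number and no pairing is known. With 2 libraries per label, the median SE of the members was 0.0766 on the log2 scale.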
